A study of Mus musculus with 9 samples.

Results

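This is a comparison of the same mixture of mouse brain tumour and brain cells grown in fibrin 3D-bioink, a printable hydrogel, and on a flat 2D petri dish. It takes the 6 culture libraries of a series of 9, with 3 libraries per format, as the sample labels assign them. Of 20778 genes in the deposited table, 13516 had a mean value of at least 10 over these 6 libraries and were tested. The other genes were listed at 0 in all 6 libraries (3141 genes) or lay below that mean (4121 genes).

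Both formats held a penta-culture, that is, 5 cell types. GL261, a mouse glioblastoma cell line of C57BL/6 origin that here carried an mCherry label, was seeded at 1000000 cells per ml. With it went astrocytes, microglia, pericytes and endothelial cells, freshly isolated from brains of male C57BL/6 mice aged 6 to 10 weeks. The cells were combined at 1:1:2:0.1:0.1, and the labels do not say which figure belongs to which cell type. Microglia were taken with CD11b beads, endothelial cells with CD31 beads and pericytes with anti-AN2 and anti-CD144 beads, and the cells left over were used as astrocytes. The 3D gels alone were cut up, digested with collagenase II (600 U per ml, 3 h) and passed through a 70 µm mesh before RNA was taken. Culture format and digestion therefore cannot be told apart in any difference below. The remaining 3 libraries came from GL261 tumours in the striatum of male C57BL/6 mice implanted at 7 weeks of age with 50000 cells and taken on day 14. Those serve here only as side values. All RNA was bulk, so fewer cells of a type and less RNA per cell cannot be told apart. Whether the 3 libraries of a format stem from separate cultures or cell isolations is not stated in the labels, so p-values here reflect only library-to-library spread, possibly technical.

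Cells that leave a flat rigid surface for a fibrin gel meet a soft matrix on all sides. Fibrin is the polymer of a blood clot, and cells bind it through integrins and remodel it with the plasmin system and matrix metalloproteinases. Immediate early genes such as Fos and Egr1 are switched on within minutes of a growth factor, stress or mechanical stimulus without new protein synthesis. Glial cells and fibroblasts exposed to inflammatory cytokines make acute phase and complement proteins, and cells short of oxygen raise glucose transport through the HIF pathway.

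The values are normalized gene levels that the authors rounded to whole numbers, so read depth per library is unknown and no counting error can be given. They summed to 15572800 to 15711632 in the 2D libraries and to 13548461 to 13683978 in the 3D libraries. On log2(value + 1), Pearson correlations across the tested genes were 0.965 to 0.967 within the 2D group, 0.921 to 0.961 within the 3D group and 0.846 to 0.892 between the groups. The first principal component (62.5% of the variance) separated the formats. The second (15.6%) separated 3D replicate 1 from 3D replicates 2 and 3, which correlated at 0.961. Low whole values were also unevenly filled in 3D replicate 1, where 67, 91, 66 and 63 symbols were listed at 1, 4, 7 and 10 against 364, 281, 225 and 202 at 2, 3, 5 and 6. Where leaving out this library changed the call or direction of a gene named here, the value without it is given. Counts within the gene lists below also moved, and not all such changes are given. Rises went from 9 to 8 for complement and for chemokines, from 7 to 6 for macrophages and from 6 to 8 for astrocytes. Interferon response falls went from 6 to 8. Hypoxia and glycolysis genes went from 20 rises and 3 falls to 23 and 4, and mitochondrially encoded rises from 12 to 11.

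The labelled cell types were checked against their defining markers. Several microglial genes were close to 0 in both formats. Tyrobp was listed at 0 in all 6 libraries, Aif1 reached at most 4, Fcrls at most 2 and Cx3cr1 at most 18. Ptprc, the pan-leukocyte marker CD45, reached at most 6. Endothelial markers were split. Pecam1 (CD31) stood at 3621, 3879 and 3451 in 2D culture and at 5407, 3162 and 3030 in 3D bioink. With all libraries its log2 difference was 0.032 and not called, and without 3D replicate 1 it was called lower, at -0.24 (limma adjusted p = 0.012). The tight junction gene Cldn5 did not pass 20 and the endothelial transcription factor Erg did not pass 2. The astrocyte water channel Aqp4 lay between 7 and 15 in every library, and Gjb6 was at 0 in 5 of 6. The pericyte gene Pdgfrb ranged from 125 to 233. Apart from Pecam1, the genes of microglia, mature astrocytes and brain endothelium named so far were thus at or near 0 in both formats. Other markers were not. The endothelial gene Cdh5 lay between 525 and 654 and the astrocyte gene Gfap between 149 and 395. The 14 listed astrocyte markers summed to 10104 to 10492 in 2D culture and 11803 to 12275 in 3D bioink.

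Of the 13516 genes tested with limma, 8281 were called at an adjusted p of 0.05, which is 61.3%. Among them 3811 (28.2% of those tested) were higher in 3D bioink and 4470 (33.1%) were lower. Differences of at least 2-fold numbered 2013 rises (14.9%) and 1511 falls (11.2%). With only the 11022 genes averaging 50 or more tested, they numbered 1246 rises and 1430 falls. Values of the groups did not overlap in 9224 genes (68.2%), in 4316 (31.9%) with the 3D libraries above and in 4908 (36.3%) with them below. In some lists below the share of genes called was near 61.3%: MHC class I (61.5%), integrin (63.6%), heat shock and drug efflux (64.3%) and elastic fibre genes (65%). The share was 66.7% for NF-kB pathway, angiogenic, pericyte and oligodendrocyte genes and 68.4% for Wnt and Notch genes. It was lower for astrocyte (46.2%), endothelial (54.5%), microglial (55.6%) and YAP and TEAD target genes (56.25%). With libraries scaled to equal sums, the median difference of all tested genes moved from -0.03 to 0.16 on the log2 scale and the calls became 4790 higher and 3455 lower. The number of genes on each side therefore depends on the scaling. Genes named below as having risen or fallen kept that direction under equal sums, equal upper quartiles and quantile normalization. Genes counted only within lists could turn. A gene counted among the falls of the Schwann-lineage list stood at 0.00475 under quantile normalization. Among strongly expressed genes the larger changes were mainly rises, with 82 genes at least 4-fold higher and 23 at least 4-fold lower where the higher group averaged 1000 or more.

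**Figure D1:**
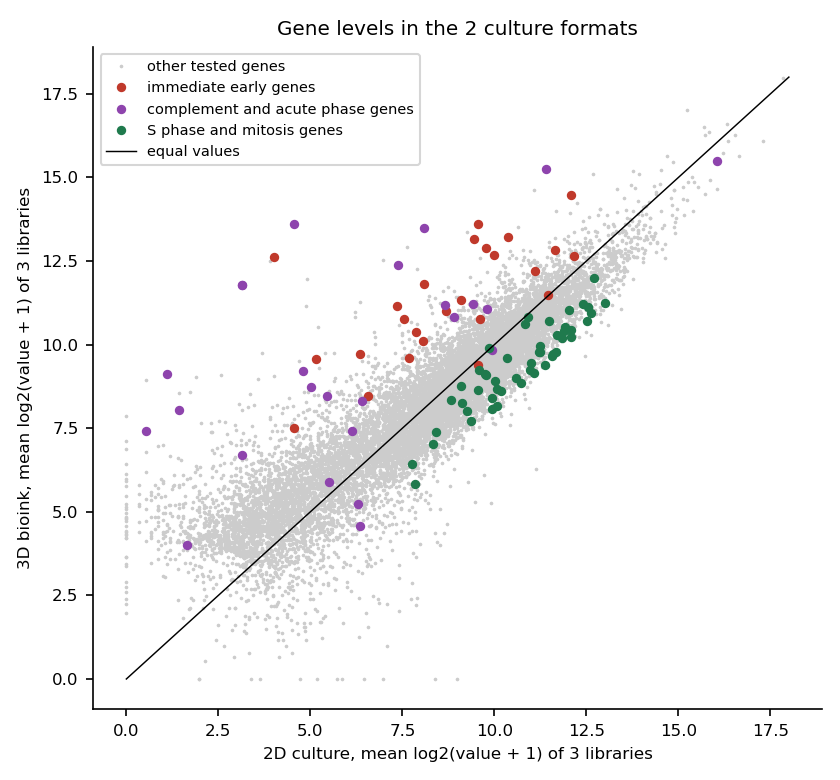
Mean log2(value + 1) of the 3 libraries in 3D bioink (y axis) against 2D culture (x axis) for the 13516 tested genes, with 3 sets of listed genes in colour and the line of equal values. Immediate early, complement and acute phase genes sit mostly above the line, and S phase and mitosis genes sit below it or close to it.

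Among genes whose higher group averaged 100 or more, the largest rise was that of Lcn2. Lcn2, which encodes the iron-siderophore carrier lipocalin 2, was listed at 30, 20 and 19 in 2D culture and at 13951, 11108 and 12465 in 3D bioink. Its log2 difference was 9.05 ± 0.18 (SE, n = 3 per group, limma adjusted p = 1.3e-07). Next came C3, Fosb, Mmp3, the inducible nitric oxide synthase Nos2, Saa3, the keratin Krt18, the proteoglycan Dcn, the growth factor binding protein Igfbp5 and the haemoglobin scavenger Hp. Nos2 went from 0, 0 and 2 to 432, 507 and 548. Igfbp5 went from 32, 25 and 30 to 3850, 4121 and 3952, a log2 difference of 7.06 ± 0.12. All of these genes were at 39 or below in the 2D libraries, so the size of their fold depends on the added 1. Prg4, the lubricating proteoglycan lubricin, joined them among genes averaging 2000 or more, with 29, 25 and 31 against 2340, 2267 and 2182.

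The largest falls in the same range were less even. Thoc7, Krt80, Ubn1, Maz, Klhdc8a, Bckdhb, Pck2, Zbtb45, Bora and Serpinb9b fell, and 8 of these 10 were listed at 0 in at least 1 3D library. Bora, an activator of the mitotic kinase Aurora A, had 364, 326 and 344 in 2D culture against 9, 12 and 37. Ubn1 had 234, 201 and 200 against 0, 0 and 142, and its call was lost without 3D replicate 1 (limma adjusted p = 0.086) or 3D replicate 2 (0.092). The calls of Bckdhb and Pck2 were also lost when single libraries were left out, with adjusted p up to 0.11 and 0.081. Without 3D replicate 1 the log2 difference of Pck2 went from -4.50 to -2.49, and without 3D replicate 3 that of Zbtb45 went from -4.41 to -2.90. Among genes averaging 2000 or more the libraries of a group lay closer together. Mest, an imprinted hydrolase gene, went from 5506, 5779 and 5652 to 754, 838 and 855, a log2 difference of -2.79 ± 0.07 (limma adjusted p = 2.2e-07). The histone genes Hist2h2ac, Hist1h1d, Hist2h3c2 and H2afx and the serine synthesis gene Phgdh completed that group.

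Some genes were listed at 0 throughout 1 format, for which no fold is given. In 3D bioink only, Map9 stood at 281, 181 and 240, and Tnfsf11, the cytokine RANKL, at 148, 114 and 159. In 2D culture only, Msantd4 stood at 399, 419 and 754, and Fech, the last enzyme of haem synthesis, at 487, 184 and 403. An exact 0 of a gene that all cells use, such as Fech, can be a failed estimate in a table of this kind. By linear difference the highest-ranked rises were Gm20594, COX1, Serpina3n, Gpnmb and Slc38a6, and the falls Hsp90ab1, Actb, Rplp0, Actg1 and Pabpc1. Gm20594 stood at 38533, 40026 and 37852 in 2D culture and at 173175, 115501 and 115555 in 3D bioink, with 3D replicate 1 apart from the others. Its log2 difference was 1.77, and 1.57 without that library.

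**Figure D2:**
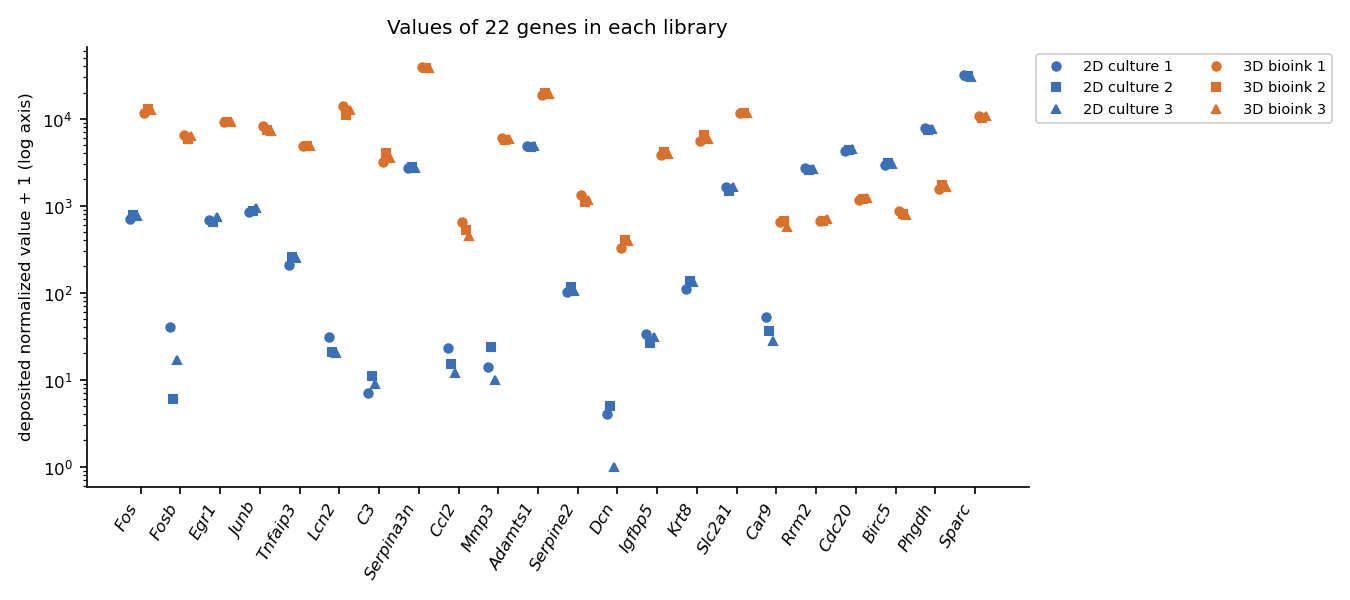
Deposited value + 1 of 22 genes (log axis) in each of the 3 libraries of 2D culture (blue) and 3D bioink (orange). The libraries of a group lie close together relative to the gap between groups for most genes shown, with the widest spread for Fosb and Dcn in 2D culture, where the values are lowest.

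Immediate early genes encode transcription factors and feedback regulators. All 25 listed members were tested, 23 rose, none fell, and the median log2 difference was 2.50 against -0.03 over all tested genes. The AP-1 subunit gene Fos stood at 695, 786 and 754 in 2D culture and at 11772, 12927 and 12560 in 3D bioink, 16.7-fold higher (log2 difference 4.06 ± 0.07, limma adjusted p = 7.8e-08). Fosb, its relative, went from 39, 5 and 16 to 6523, 5897 and 6373. Egr1, a zinc finger factor, went from 691, 640 and 747 to 9095, 9285 and 9249. In each of these genes every 3D library lay far above every 2D library. Junb, Atf3, Nr4a3 and Egr2 differed by 3.12, 3.72, 3.80 and 4.43 on the log2 scale. The members without a call were Fosl1, with 654, 734 and 900 against 640, 718 and 662, and the growth regulator Myc, with 2606, 2799 and 3116 against 2571, 2986 and 2982, though Myc was called higher under quantile normalization (limma adjusted p = 0.048). Without 3D replicate 1 the list again gave 23 rises.

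Known inducible elements were looked for in the 250 bases before the start sites of these genes, on both strands, in RefSeq promoters of build GRCm38.p6. Of 27025 symbols with an entry, 1.77% held the cAMP response element TGACGTCA, 7.82% the AP-1 element TGANTCA and 1.62% a CArG box, the site of serum response factor. Among the 20 immediate early genes with an entry, TGACGTCA was found in 3 (Btg2, Dusp1 and Maff), a CArG box in 2 (Egr2 and Zfp36) and TGANTCA in 0. The windows of Egr2 (chr10:67537316-67537565, plus strand) and Dusp1 (chr17:26508473-26508722, minus strand), which encodes a phosphatase that switches off MAP kinases, are shown 5′ to 3′ because both genes rose and each holds a match, the CArG box or TGACGTCA, in capitals.
Egr2: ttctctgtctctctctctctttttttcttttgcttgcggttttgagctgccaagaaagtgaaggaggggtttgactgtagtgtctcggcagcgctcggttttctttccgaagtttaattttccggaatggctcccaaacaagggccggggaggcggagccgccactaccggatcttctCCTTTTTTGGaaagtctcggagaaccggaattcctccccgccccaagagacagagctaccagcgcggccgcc
Dusp1: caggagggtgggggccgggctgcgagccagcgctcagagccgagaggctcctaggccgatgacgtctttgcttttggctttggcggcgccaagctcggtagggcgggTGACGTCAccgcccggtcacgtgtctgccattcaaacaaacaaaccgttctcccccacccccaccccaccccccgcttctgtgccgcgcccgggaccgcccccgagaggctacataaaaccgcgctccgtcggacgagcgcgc
Egr2 stood at 29, 38 and 37 in 2D culture and at 741, 794 and 761 in 3D bioink, and Dusp1 at 560, 443 and 636 against 2920, 2410 and 2399. A match is a run of letters and not a measured binding site.

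The MAP kinase feedback genes, which are read as output of the ERK pathway, did not move as a block. Of 16 tested, 10 rose and 4 fell, with a median of 0.34. Dusp4 rose by 1.63 and Dusp2 by 2.83 on the log2 scale, whereas Dusp6, Spry1, Etv4 and Etv5 fell. Dusp6, the ERK-specific phosphatase, went from 6753, 6412 and 6660 to 4107, 4293 and 4404.

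Most NF-kB pathway, cytokine and chemokine genes that passed the filter rose. Of 15 NF-kB pathway genes tested, 9 rose and 1 (Nfkbib, at -0.41) fell, with a median of 0.91. The call of Nfkbib was lost under equal sums (limma adjusted p = 0.10). The ubiquitin-editing inhibitor Tnfaip3 (A20) stood at 206, 256 and 252 in 2D culture and at 4900, 4832 and 4871 in 3D bioink, 20.5-fold higher, and Nfkbia and Nfkbiz differed by 2.70 and 3.22 on the log2 scale. The subunit genes Rela, Nfkb1 and Nfkb2 were not called, at 0.10, 0.04 and -0.24. Under equal sums Nfkb1 was called higher, at 0.24 (limma adjusted p = 0.043). Of 10 tested cytokine and inflammatory growth factor genes 9 rose (median 2.10), and of 11 tested chemokine genes 9 rose (median 1.88), with no fall in either list. A further 5 of 15 listed cytokine and 10 of 21 listed chemokine genes were below the filter and not tested. Members near 0 in 2D culture, such as Il6, passed it only through their 3D values and could count only as rises. The prostaglandin synthase Ptgs2 went from 77, 106 and 62 to 2920, 2181 and 2400. The monocyte attractant Ccl2 went from 22, 14 and 11 to 641, 527 and 446, and the neutrophil attractant Cxcl1 from 14, 18 and 5 to 537, 430 and 536. Il6 rose from 0, 3 and 0 to 69, 23 and 54, a low level, and Il1b and Tnf did not pass 9 in any of the 6 libraries and were not tested.

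Acute phase and complement genes had the highest medians among the 45 lists of gene programmes. Of 14 acute phase and reactive astrocyte genes, 11 rose and 1 (Vim) fell, with a median of 3.70. Serpina3n, a protease inhibitor, went from 2696, 2757 and 2710 to 39341, 38679 and 38541 (log2 difference 3.84 ± 0.04, limma adjusted p = 2.0e-08). The copper oxidase Cp went from 296, 288 and 231 to 11721, 10778 and 11628. Of 11 complement genes tested 9 rose and 2 (C3ar1 and Cd55) fell, with a median of 2.55. Cd55 was not called in a fit over all 9 libraries (limma adjusted p = 0.14). C3, the central component and a member of both lists, stood at 6, 10 and 8 against 3161, 3980 and 3574. C4b went from 139, 155 and 211 to 5054, 5614 and 5339, and the inhibitor Serping1 from 32, 28 and 22 to 645, 533 and 595. The early components C1s1 and C1ra also rose, by 3.72 and 3.01 on the log2 scale. Gfap, the filament protein of reactive astrocytes, stood at 163, 187 and 149 against 367, 362 and 395.

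Interferon response genes were split. Of 21 interferon response genes 9 rose and 6 fell, with a median of 0.00. Isg15 fell from 1311, 1189 and 1175 to 521, 504 and 443, while Rsad2 rose from 1184, 1169 and 1156 to 2535, 2302 and 2233. In the MHC class I pathway 6 of 13 rose, among them H2-K1 and H2-Q4 (log2 differences 1.51 and 1.95), and 2 fell, with the immunoproteasome subunit Psmb10 at -1.33. In the MHC class II pathway 5 of 6 tested genes rose, from very low levels: Cd74, the invariant chain, stood at 4, 8 and 3 against 29, 41 and 26. Under quantile normalization 2 of the 6 were called higher, with a median of 1.12 in place of 2.01.

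**Figure D3:**
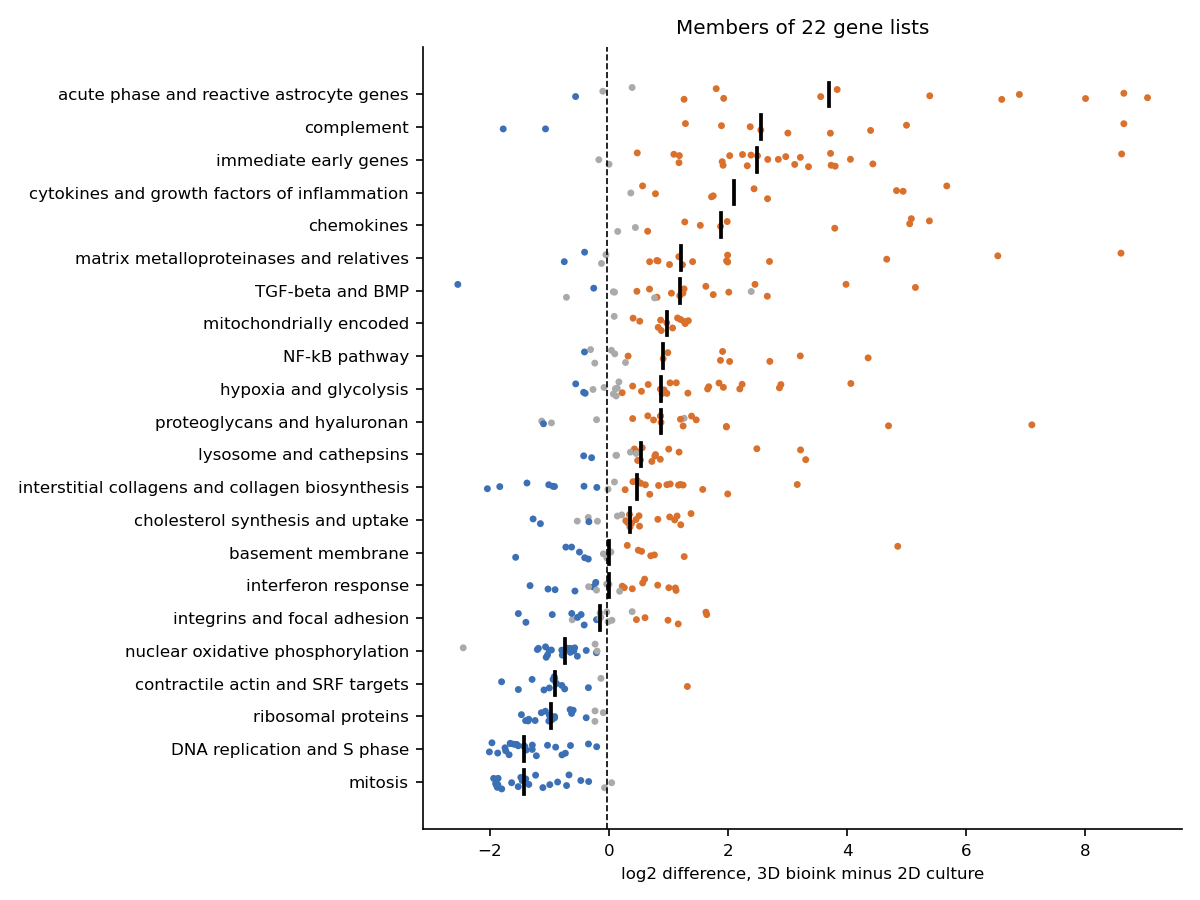
Log2 difference (3D bioink minus 2D culture) of each tested member of 22 gene lists, in orange where called higher, blue where called lower and grey where not called, with the list median as a bar and the median of all tested genes (-0.03) as the dashed line. The medians run from 3.70 for acute phase genes to -1.43 for mitosis genes.

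Matrix genes changed in both directions. Of 25 interstitial collagen and collagen biosynthesis genes, 15 rose and 8 fell, with a median of 0.48. Col3a1 went from 2831, 2884 and 2863 to 8730, 8790 and 8091, and the lysyl hydroxylase Plod2, which sets stable collagen crosslinks, from 1474, 1506 and 1663 to 6228, 5986 and 6305. Col6a3 was uneven among the 3D libraries, with 117, 159 and 261 against 942, 1941 and 1947. Loxl3 and the collagen chaperone Serpinh1 fell, by 2.04 and 1.83 on the log2 scale. Of 16 basement membrane genes 7 rose and 6 fell, with a median of 0.00: Sparc, a collagen-binding matricellular protein, fell from 31420, 31023 and 30232 to 10643, 10064 and 10603, Lamb1 fell by 0.63, and Col4a5 rose by 1.27. Under equal sums 8 of these rose and 5 fell, and under quantile normalization 9 and 3. Of 20 elastic fibre, fibronectin and matricellular genes 9 rose and 4 fell, or 10 and 2 under equal sums. Spp1, the secreted phosphoprotein osteopontin, stood at 2127, 2220 and 2171 against 23703, 25751 and 26429, 11.6-fold higher, and Thbs2 rose by 2.32 while Fbln2 fell by 1.90.

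Proteoglycan and hyaluronan genes rose in 14 of 19 tested, with 1 fall, Gpc1, and a median of 0.88. The small leucine-rich proteoglycan Dcn stood at 3, 4 and 0 against 329, 405 and 389, and Bgn at 1027, 1032 and 971 against 2681, 2548 and 2712. Has2, a hyaluronan synthase, rose by 1.47 on the log2 scale.

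Proteases that cut matrix rose as a list, with 14 of 18 tested genes higher, 2 lower and a median of 1.21. The stromelysin Mmp3 stood at 13, 23 and 9 in 2D culture and at 5947, 5662 and 5861 in 3D bioink, a log2 difference of 8.60 ± 0.29 (limma adjusted p = 1.1e-06). The collagenase Mmp13 went from 6, 9 and 2 to 581, 514 and 556, and Adamts1 from 4912, 4789 and 4841 to 18763, 19761 and 19450. The gelatinase Mmp2 went from 4265, 3984 and 4061 to 9855, 9714 and 9439, and its membrane activator Mmp14 rose by 1.02. Mmp9, the other gelatinase, did not pass 10 in any library, and Mmp15 fell by 0.75. Of 18 plasminogen, fibrin and protease inhibitor genes 11 rose and 4 fell, with a median of 0.63. The rises included the protease inhibitor Serpine2 (102, 116 and 104 against 1308, 1098 and 1160). The plasminogen activators stood at smaller differences, with Plat at 0.64 and Plau at 0.62, and the call of Plau was lost without single libraries (limma adjusted p up to 0.098). The fibrin crosslinking enzyme F13a1 stood at 0, 0 and 0 against 32, 14 and 19, a low level for which no fold is given. Tissue factor F3, the starter of clotting, fell by 1.12, as did the plasminogen receptor Anxa2, by 1.21.

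Most contractile genes fell. Of 15 contractile actin and serum response factor target genes 12 fell and 1 rose (Lmod1, from 26, 15 and 18 to 51, 56 and 42), with a median of -0.91. Lmod1 was not called under quantile normalization (limma adjusted p = 0.14). Actb went from 101357, 102014 and 105739 to 50460, 51721 and 52411, and Tpm1 from 12895, 13310 and 13903 to 6337, 7603 and 7055. The smooth muscle actin gene Acta2 was low in both formats, at 87, 52 and 53 against 21, 14 and 17. Of 22 integrin and focal adhesion genes 6 rose and 8 fell, and under equal sums 7 rose and 6 fell. As reported 63.6% were called, near the 61.3% of all tested genes. The fibronectin receptor chain Itga5 rose from 1796, 1553 and 1755 to 5296, 5262 and 5364, whereas Itga3, the actin crosslinker Actn1 and Ilk fell by 1.39, 1.52 and 0.95. The shared chain Itgb1 was not called, at 0.05, but under equal sums it was, at 0.25. Of 16 YAP and TEAD target genes 2 rose and 7 fell, and under equal sums 6 rose and 5 fell. The canonical target Ctgf was not called (989, 1017 and 1070 against 862, 1068 and 966). In the mesenchymal transition list 8 of 15 rose and 4 fell, with Zeb2 higher by 1.05, Cdh11 by 1.56 and the neural cadherin Cdh2 lower by 1.30. Cdh11 was not called in a fit over all 9 libraries (limma adjusted p = 0.087).

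Cell cycle genes were lower. All 25 genes of DNA replication and S phase fell, 19 of them at least 2-fold, with a median of -1.42. The ribonucleotide reductase subunit Rrm2 went from 2687, 2573 and 2663 to 667, 662 and 700 (log2 difference -1.96 ± 0.06, limma adjusted p = 7.1e-07), and the replicative helicase subunit Mcm2 from 4411, 4130 and 4554 to 1274, 1406 and 1472. Of 24 mitosis genes 22 fell and none rose, with a median of -1.43. Cdc20, an activator of the anaphase-promoting complex, stood at 4248, 4349 and 4478 against 1162, 1197 and 1230, and Birc5 at 2926, 3055 and 3051 against 865, 792 and 778. The common proliferation marker Mki67 was not called, with 1858, 1936 and 1974 against 1710, 1871 and 1910, nor was Cenpf, with 956, 810 and 1027 against 897, 1023 and 956. Under equal sums, equal upper quartiles or quantile normalization 23 of 25 and 21 of 24 genes of these lists fell. The cyclin gene Ccnd1 fell by 1.03. Among 20 p53 targets and cell cycle inhibitors 10 rose and 6 fell: Gadd45a and Gadd45b each rose by 1.57 and Cdkn1b by 0.70, Trp53 itself fell by 0.89, and Cdkn1a was not called, at 0.11, although it was under equal sums, at 0.31.

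Genes of the hypoxia response rose, and 3 abundant glycolytic enzymes fell. Of 30 listed genes 20 rose and 3 fell, with a median of 0.88. The glucose transporter Slc2a1 stood at 1639, 1493 and 1658 against 11750, 11489 and 11652, 7.29-fold higher (log2 difference 2.87 ± 0.06, limma adjusted p = 1.3e-07). The carbonic anhydrase Car9 went from 51, 35 and 27 to 651, 658 and 571, Vegfa from 1179, 1129 and 1173 to 3520, 3970 and 3663, and Bnip3, a mitophagy receptor, from 381, 350 and 277 to 1655, 1440 and 1640. The 3 falls were Gapdh, Eno1 and Pkm, at -0.56, -0.42 and -0.40, of which Pkm lost its call under quantile normalization (limma adjusted p = 0.12). Ldha was not called (11806, 11499 and 11398 against 11156, 10868 and 10796), and its direction turned with the scaling: it was called higher under quantile normalization (0.26, limma adjusted p = 0.0014) and equal sums (0.12, adjusted p = 0.049), and lower without 3D replicate 1 (-0.095, adjusted p = 0.048).

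The hypoxia response element core ACGTG occurs in the 250 bases before the start site of 18.5% of all symbols with an entry, and of 17 of the 26 hypoxia and glycolysis genes with one (65.4%), Car9, Slc2a1, Bnip3 and Vegfa among them. The list was made of known targets, so this share describes the list. ACGTG was also found before 8 of 20 immediate early genes (40%) and 4 of 14 cholesterol synthesis and uptake genes (28.6%). A share above that of all symbols was thus not particular to the hypoxia list. The Car9 window (chr4:43506776-43507025, plus strand) is shown because Car9 has the largest rise of the list, with the single match, in reverse complement, in capitals 13 bases before the start site.
Car9: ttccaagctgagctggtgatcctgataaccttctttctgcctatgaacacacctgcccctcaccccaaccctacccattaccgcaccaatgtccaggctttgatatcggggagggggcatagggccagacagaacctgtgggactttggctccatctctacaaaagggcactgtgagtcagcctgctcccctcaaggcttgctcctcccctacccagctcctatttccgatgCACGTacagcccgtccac

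Sterol synthesis is controlled by SREBP factors that bind sterol elements. Of 22 cholesterol synthesis and uptake genes 14 rose and 3 fell, with a median of 0.35. Hmgcs1, the HMG-CoA synthase, stood at 1057, 964 and 1001 against 2885, 2426 and 2575. Mvk, the mevalonate kinase, fell by 1.15. The sterol element core CACCCCAC was found before 2.98% of all symbols and before 1 of 14 genes of this list with an entry (7.14%), Hmgcs1. It was also found before 3 of 26 hypoxia and glycolysis genes (11.5%) and before 1 of 20 immediate early genes, Dusp1. The Hmgcs1 window (chr13:119690101-119690350, plus strand) is shown with the match in capitals.
Hmgcs1: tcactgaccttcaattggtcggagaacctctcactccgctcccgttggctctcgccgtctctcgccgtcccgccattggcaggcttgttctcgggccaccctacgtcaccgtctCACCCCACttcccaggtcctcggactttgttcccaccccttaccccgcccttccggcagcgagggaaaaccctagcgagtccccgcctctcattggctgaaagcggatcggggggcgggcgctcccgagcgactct
Of 16 fatty acid genes 5 rose and 7 fell, against 7 and 4 under quantile normalization and 6 and 5 under equal sums, with Acsl3 higher by 1.79 and Srebf1 lower by 0.73.

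Respiratory chain genes split by genome. Of 20 nuclear oxidative phosphorylation genes 17 fell and none rose (median -0.74), with Atp5b at 23826, 23917 and 24543 against 11451, 11351 and 11780. Of 13 mitochondrially encoded genes 12 rose (median 0.97), and COX3 was not called. The mitochondrially encoded genes made up 0.919%, 0.931% and 0.944% of the deposited sum in 2D culture, against 2.31%, 1.69% and 1.89% for the 3D libraries, with 3D replicate 1 highest (exact two-sided permutation test, p = 0.10, the smallest that 3 against 3 libraries can give). Ribosomal protein genes moved the other way: 17 of 20 listed fell and none rose (median -0.97), and all 84 such genes together took 4.44%, 4.22% and 3.93% of the sum in 2D culture against 2.64%, 2.42% and 2.52% in 3D bioink (exact p = 0.10). Rplp0 went from 63308, 68954 and 69938 to 21906, 28832 and 26399.

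**Figure D4:**
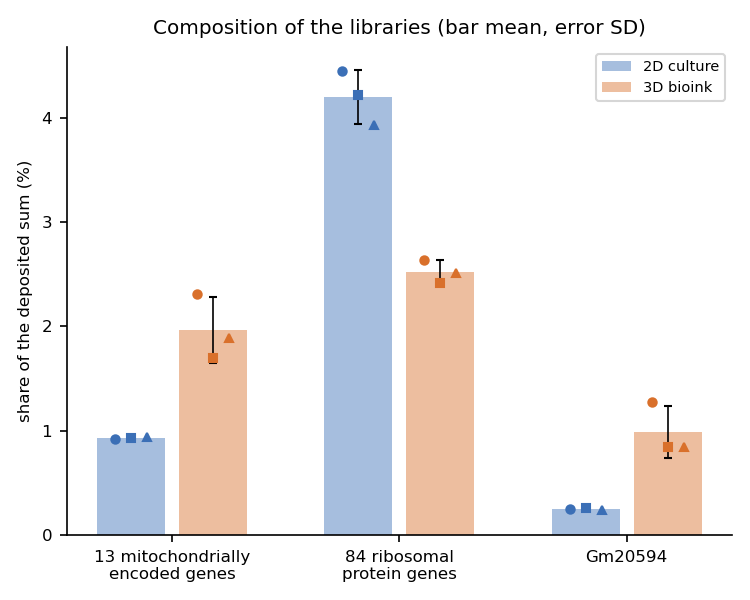
Share of the deposited sum (%) taken by 13 mitochondrially encoded genes, 84 ribosomal protein genes and Gm20594 in each library, with bars at the group mean and error bars of 1 SD (n = 3 libraries per group). Mitochondrially encoded genes averaged 0.931% in 2D culture and 1.96% in 3D bioink, and ribosomal protein genes 4.20% and 2.52%.

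Genes of stress programmes moved in both directions. Among 14 heat shock genes 4 rose and 5 fell, so 64.3% were called, near the 61.3% of all tested genes. The inducible Hspa1a went from 11, 40 and 47 to 222, 232 and 210, while the mitochondrial chaperonins Hspd1 and Hspe1 fell by 1.04 and 1.84. Among 21 integrated stress and unfolded protein response genes 9 rose and 8 fell, or 11 and 6 under equal sums. Slc7a11 and Dnajb9 rose by 1.99 and 2.10, and the amino acid synthesis genes Asns and Psat1 fell by 1.23 and 1.69. Of 18 NRF2 and redox genes 6 rose and 9 fell, or 7 and 7 under equal sums, with Hmox1 higher by 1.15 and Gsr lower by 1.15. Lysosomal genes rose in 14 of 20, with the collagen-degrading cathepsin Ctsk at 48, 51 and 52 against 420, 501 and 618.

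Genes of growth factor systems that differed included ligands, inhibitors and targets. Of 21 TGF-beta and BMP genes tested 14 rose and 2 fell, with a median of 1.19. The ligand Bmp2 went from 21, 23 and 18 to 366, 329 and 327, the BMP antagonist Grem1 from 5, 8 and 10 to 292, 285 and 316, and the inhibitory Smad7 from 461, 500 and 529 to 2536, 2918 and 2730. The BMP targets Id1, Id2 and Id3 rose by 1.26, 1.63 and 1.19. Among 9 EGF family genes the ligands Ereg and Areg rose by 5.31 and 3.33, Tgfa fell by 0.78 and the receptor Egfr was not called, at -0.27. In the IGF system 8 of 11 rose, with Igf2 at 585, 526 and 587 against 1701, 1282 and 1522. Of 24 angiogenic genes 12 rose and 4 fell, or 13 and 1 under equal sums. As reported 66.7% were called, near the 61.3% of all tested genes. Vegfc and Pdgfb rose by 4.35 and 3.60, and Pgf went from 41, 49 and 28 to 291, 227 and 179. Apln went from 0, 0 and 4 to 42, 45 and 40, a low level. Of 19 Wnt and Notch genes 8 rose and 5 fell, so 68.4% were called, against 61.3% of all tested genes. The Wnt feedback target Axin2 stood at 210, 177 and 228 against 1029, 1217 and 1237. In the aryl hydrocarbon receptor pathway 5 of 8 rose, among them Ahr (2.18), Tiparp (2.98) and Cyp1a1 (7, 2 and 6 against 129, 105 and 124).

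Of 14 drug efflux and resistance genes 3 rose and 6 fell: Abcb1a, a P-glycoprotein gene, rose by 1.78, and the transporters Abcg2 and Abcc1 fell by 0.85 and 0.52. Among 11 immune checkpoint genes tested 5 rose and 3 fell, with Cd274 (PD-L1) at 114, 96 and 106 against 215, 201 and 202 and Cd47, the signal that inhibits phagocytosis, at 1092, 1012 and 1023 against 2942, 2000 and 2356. Selp, which encodes P-selectin, rose from a very low level, with 3, 6 and 3 against 19, 33 and 28.

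Marker lists of cell types were described in the same way. All 12 tested fibroblast and meningeal genes but Pi16 rose, 11 in all, with a median of 1.75, and their summed value was 11996 to 12562 in 2D culture and 22768 to 24562 in 3D bioink. Col1a1, Col1a2, Col3a1, Dcn, Lum and Fbln1 of this list were already counted in the matrix lists above, so their rises are not separate results. Without 3D replicate 1 Pi16 was called higher too (limma adjusted p = 0.049). Islr (9, 4 and 9 against 135, 112 and 138) and Lum (3, 0 and 0 against 77, 27 and 31) joined Dcn among list members near 0 in 2D culture. Astrocyte markers rose in 6 of 13, endothelial markers in 6 of 11 and pericyte markers in 4 of 9 with 2 falls. The shares called were 46.2%, 54.5% and 66.7%, below or near the 61.3% of all tested genes. The endothelial sum, 6559 to 6737 against 17543 to 19956, included 11489 to 11750 of Slc2a1 in 3D bioink, which other cells also express. Cdh5 (VE-cadherin) was not called, with 574, 613 and 590 against 525, 654 and 643. The pericyte gene Rgs5 went from 10, 7 and 9 to 124, 140 and 132. Microglial markers summed to 992 to 1095 against 1703 to 1781, and 5 of 9 tested rose (55.6% called), or 2 under quantile normalization. Macrophage markers rose in 7 of 9 with 1 fall, or in 4 with 1 fall under quantile normalization, and Cd14 went from 14, 25 and 30 to 362, 246 and 268. Of 9 oligodendrocyte genes 2 rose and 4 fell (66.7% called), with Mbp at 5854, 5563 and 5558 against 2620, 2392 and 2663. Among simple epithelial keratins Krt8 was at 110, 134 and 131 against 5545, 6575 and 5848 and its partner Krt18 at 9, 4 and 0 against 491, 552 and 527, while Krt19 fell from 199, 228 and 239 to 8, 14 and 18. The part of these marker levels in the changes of the gene groups above was not tested.

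**Figure D5:**
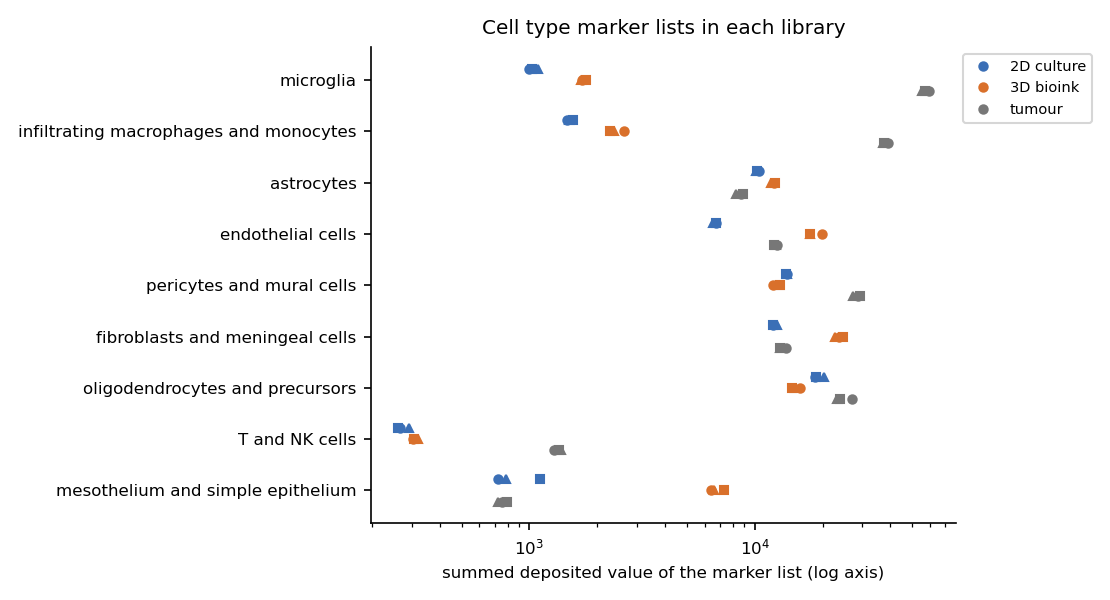
Summed deposited value (log axis) of 9 cell type marker lists in each library of 2D culture (blue), 3D bioink (orange) and tumours (grey). Microglial lists sum to 992 to 1095 in 2D culture, 1703 to 1781 in 3D bioink and 55291 to 59454 in tumours, and fibroblast lists are highest in 3D bioink.

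Values of the tumour libraries for a selection of the genes named above are given side by side, without a test. The selection does not follow the ranking by size of change. Fos stood at 34450, 34746 and 35210 in tumours, Tnfaip3 at 13545, 13375 and 13397 and C3 at 10528, 11049 and 10823, each above both culture formats. Serpina3n stood at 11253, 10810 and 10776, Slc2a1 at 5738, 5292 and 5248 and Krt8 at 395, 478 and 417, between the formats. Lcn2 stood at 171, 186 and 206, far below its level in 3D bioink. Mmp3 at 6, 8 and 16, Dcn at 1, 0 and 11 and Spp1 at 1098, 1074 and 1109 were close to or below the 2D libraries. Rrm2, at 780, 616 and 665, was near the 3D level, and Cdc20, at 2503, 2423 and 2274, lay between the formats.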

How the data were processed

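Bulk RNA of 3 libraries of 2D culture and 3 of 3D bioink was compared. The libraries were made from 25 to 75 ng RNA with 14 cycles of PCR and a strand-specific kit, per the labels' protocols. The deposited gene table holds normalized values that the authors rounded to whole numbers, treated here as a score with no known read depth. Kallisto, RSEM, DESeq2 1.24.0, DESeq and mm10 are named in the submitters' processing notes, with no role or order. Exact zeros and low whole numbers can come from estimation or rounding and were taken as listed.

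From these values, log2(value + 1) was fitted with limma 3.58.1 (R 4.3.3, empirical Bayes with a trend) for genes averaging 10 or more across the 6 libraries. P-values were adjusted by Benjamini-Hochberg over all 13516 genes, with a threshold of 0.05. Errors are standard errors of the log2 difference. The main alternatives were other scalings, pseudocounts of 0.5 and 10, filters, a replicate block, all 9 libraries, array weights and leaving out each library.

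The comparison, the 60 gene lists and the rules were chosen with earlier results of these data known. Named were the 10 largest rises and falls (higher group averaging 100 or more), the 6 largest averaging 2000 or more, the 5 largest linear differences each way, up to 4 genes at 0 in all libraries of a format each way, up to 3 genes per list by smallest p, and a fixed set. Other list members were named for their roles after their values were seen. Some genes that these rules name are not reported here. Lists are described by counts and medians, with no test. Same-numbered libraries did not deviate together (correlations 0.01, -0.04 and 0.03).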

Additional observations from a re-analysis of the deposited data

How the results depend on the processing

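Read depth is unknown, so no limit from counting can be given, and with 3 libraries per format no exact test over libraries can go below 0.10. Leaving out each library in turn gave 7275 to 8619 called genes, 3308 to 3910 higher, 3935 to 4709 lower, 1825 to 1975 at least 2-fold higher and 1428 to 1570 at least 2-fold lower. The difference in share of the deposited sum then ran from 0.861 to 1.17 percentage points for mitochondrially encoded genes, -1.81 to -1.55 for ribosomal protein genes, 0.597 to 0.814 for Gm20594 and 1.09 to 1.43 for the 10 most abundant genes. Genes at least 2-fold lower numbered 991 with equal upper quartiles and 925 with equal sums, against 1511 as reported. Genes at least 2-fold higher numbered 1246 where genes had to average 50 or more, against 2013, with 11022 genes tested in place of 13516. Under that filter genes at least 2-fold lower numbered 1430, so these falls outnumbered the rises. The other counts moved by less than 1.5 times under each alternative.

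Same-numbered libraries are not known to be paired. With the number as a replicate block, 7971 genes were called (3585 higher, 4386 lower), and of the named genes only Plau lost its call.

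Among the genes named here, those that reversed had no call as reported. With quantile normalization, equal upper quartiles and equal sums the log2 differences became 0.0778, 0.0779 and 0.11 for Ctgf, 0.26, 0.0892 and 0.12 for Ldha and 0.13, 0.10 and 0.13 for Mki67. Fosl1 became 0.000969 and 0.0298 with equal upper quartiles and equal sums, Aqp4 -0.80 with quantile normalization and Pecam1 -0.24 with array weights. Leaving out each library gave -0.11 to 0.38 for Aqp4, -0.39 to 0.47 for COX3, -0.0273 to 0.13 for Cdh5, -0.0497 to 0.12 for Cenpf, -0.0567 to 0.0751 for Myc, -0.00875 to 0.13 for Nfkb1 and -0.24 to 0.18 for Pecam1. Of these reversed values, Ldha was called under quantile normalization and equal sums, and Pecam1 without 3D replicate 1 (limma adjusted p = 0.0014, 0.049 and 0.012). The cause was not tested.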

Other observations

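5 further gene groups were described after the values were seen. Of 56 tested replication-dependent histone genes 49 fell and none rose (median log2 difference -1.64), with Hist1h1d at 10402, 10814 and 11992 in 2D culture against 2335, 2030 and 2066. These transcripts mostly lack a poly(A) tail and their level in a library depends on how RNA was selected. Of 20 ribosome biogenesis genes 16 fell and 1 rose (median -1.13), with the nucleolar methyltransferase Fbl at 3274, 2957 and 2868 against 955, 1026 and 1106. Of 16 serine, one-carbon and purine synthesis genes 13 fell and none rose (median -1.39), with Phgdh, the first enzyme of serine synthesis, at 7716, 7505 and 7652 against 1546, 1747 and 1651.

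Of 20 clock and quiescence-associated genes 19 rose and none fell (median 1.11). The clock repressor Nr1d1 stood at 217, 210 and 175 against 1458, 1294 and 1334, and the FOXO target Fbxo32, a ubiquitin ligase component, at 112, 103 and 103 against 1238, 1383 and 1354. Of 14 tested Schwann-lineage and neural crest genes 6 rose and 7 fell. Sox10, the transcription factor of that lineage and of oligodendrocytes, was high in both formats, at 6841, 7199 and 8898 against 5227, 4515 and 4785.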
